A study of Homo sapiens with 6 samples.

Results

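Cassette exons over 250 nt, which are either kept in a transcript or skipped whole, were compared between DFMO-treated and Control cells of the human neuroblastoma line SKNBE2. DFMO (difluoromethylornithine) inhibits ornithine decarboxylase, the enzyme that opens polyamine synthesis. An exon was a member when it was a cassette exon event longer than 250 nt, its coverage score was LOW, OK or SOK with 10 reads or more in each of the 6 libraries, and its mean inclusion over the 3 Control libraries lay between 5% and 95%. By this rule 368 of the 223565 exon events of the table were members, in 346 genes, with 2 exons that carry no gene symbol. The members were thus chosen by their Control percents and by their reads, and not by the DFMO percents. The tested cells had 250 µM DFMO for 4 days, the Control cells had no agent named in the labels, and all were SKNBE2 with amplified MYCN. Each group had 3 libraries from this line alone, and nothing says that they came from separate cultures, so p values measure the spread between these libraries, which may be technical. Stranded mRNA was read in single reads of 100 nt, and the measure was the deposited percent of inclusion of an exon. For 222 of the 328 tested long exons this was the mean of the upstream and downstream junction reads, divided by that mean plus the skipping reads. An exon read at only 1 end therefore has a lower percent than its share of junction reads. For the other tested long exons these 3 numbers did not give the percent. The comparison asks how exon choice differs once polyamine synthesis is blocked.

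Most human internal exons are short, and the splicing machinery recognises them as units by pairing the acceptor at one end with the donor at the other across the exon. Long internal exons lie outside the size at which this pairing works best and lean more on strong splice sites and enhancer sequence. Several of them carry large protein segments, such as the glycosaminoglycan-bearing domains of versican or the central region of the microtubule protein MAP2, and others bring premature stop codons that send the transcript to nonsense-mediated decay (NMD). Polyamines are small cations that bind RNA, and neuroblastomas with amplified MYCN depend on their synthesis.

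Whole sequences are shown for the 6 annotated coding exons under 300 nt that passed the test described below, and the ends of the exon for VCAN and MAP2, to show what is added to or left out of the transcript; exons over 300 nt were too long to print whole. Sequences are from GENCODE release 29 transcripts on GRCh38, 5′ to 3′ on the transcript strand. The capitals mark the last 3 bases of the exon, which form the exon side of the donor.
DAGLB exon (chr7:6434762-6435020, minus strand): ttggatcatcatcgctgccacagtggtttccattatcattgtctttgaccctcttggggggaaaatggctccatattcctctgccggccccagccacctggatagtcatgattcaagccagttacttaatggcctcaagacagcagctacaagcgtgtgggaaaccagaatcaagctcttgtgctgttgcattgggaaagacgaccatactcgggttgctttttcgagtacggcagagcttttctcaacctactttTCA
RET exon (chr10:43111207-43111465, plus strand): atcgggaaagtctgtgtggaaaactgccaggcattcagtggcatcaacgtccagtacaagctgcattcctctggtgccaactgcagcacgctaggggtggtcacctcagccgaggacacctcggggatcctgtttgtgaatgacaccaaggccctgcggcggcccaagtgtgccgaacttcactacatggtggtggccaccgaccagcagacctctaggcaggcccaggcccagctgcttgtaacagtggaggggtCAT
CAPN10 exon (chr2:240596681-240596942, plus strand): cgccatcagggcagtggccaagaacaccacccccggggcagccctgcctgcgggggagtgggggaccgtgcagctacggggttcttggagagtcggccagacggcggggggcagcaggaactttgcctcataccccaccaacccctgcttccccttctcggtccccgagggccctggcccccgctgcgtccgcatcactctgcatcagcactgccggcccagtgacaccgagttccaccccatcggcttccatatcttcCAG
CCDC136 exon (chr7:128814638-128814919, plus strand): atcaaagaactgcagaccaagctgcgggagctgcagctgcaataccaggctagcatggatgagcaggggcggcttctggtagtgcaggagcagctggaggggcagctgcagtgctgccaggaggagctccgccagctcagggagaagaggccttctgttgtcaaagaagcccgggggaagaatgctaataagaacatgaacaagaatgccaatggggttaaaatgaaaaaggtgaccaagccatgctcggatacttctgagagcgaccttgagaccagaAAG
CEP170 exon (chr1:243185779-243186072, minus strand): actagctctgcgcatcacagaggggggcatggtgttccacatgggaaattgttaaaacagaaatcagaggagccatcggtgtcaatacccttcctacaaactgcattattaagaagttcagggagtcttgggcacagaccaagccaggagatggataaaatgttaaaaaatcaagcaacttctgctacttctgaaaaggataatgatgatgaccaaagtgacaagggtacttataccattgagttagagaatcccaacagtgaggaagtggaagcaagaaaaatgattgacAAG
R3HDM1 exon (chr2:135641536-135641790, plus strand): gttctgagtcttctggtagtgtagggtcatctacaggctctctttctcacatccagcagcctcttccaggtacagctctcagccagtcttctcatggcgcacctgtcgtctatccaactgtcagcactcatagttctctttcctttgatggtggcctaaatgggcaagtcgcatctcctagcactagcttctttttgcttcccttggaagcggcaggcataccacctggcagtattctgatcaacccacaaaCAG
VCAN exon, the first 60 bases (chr5:83519349-83522309, plus strand): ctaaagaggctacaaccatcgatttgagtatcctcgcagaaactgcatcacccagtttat
VCAN exon, the last 60 bases: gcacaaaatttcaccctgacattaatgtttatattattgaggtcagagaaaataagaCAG
MAP2 exon, the first 60 bases (chr2:209692637-209696350, plus strand): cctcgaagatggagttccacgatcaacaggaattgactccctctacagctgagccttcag
MAP2 exon, the last 60 bases: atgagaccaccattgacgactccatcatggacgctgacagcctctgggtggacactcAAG
The CAPN10, R3HDM1 and VCAN exons end in CAG, CCDC136, CEP170 and MAP2 in AAG, DAGLB in TCA and RET in CAT. Of the 212 tested long exons annotated as an internal exon, 88.2% ended in G and 26.4% in CAG, against 79.9% and 25.1% of all 5743 such tested exons. Their median GC content was 52.1%, against 48.3%.

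The members ranged from 251 to 9361 nt with a median of 361 nt, and 32 were over 1000 nt. GENCODE lists 240 of them as an internal exon, 73 lie inside a longer annotated exon, 54 are not annotated and 1 is a terminal exon only. By place, 152 were coding throughout, 41 were partly coding with the start codon, 1 was partly coding with the stop codon, 15 lay in the 5′ UTR, 15 occurred in NMD transcripts only and 17 in noncoding transcripts only. No 2 members overlapped. In the Control libraries 121 members were included under 25%, 73 between 25% and 75% and 174 over 75%. At the edges of the rule stood a 251-nt exon of STRA6 (10.9% ± 3.55 with DFMO and 16.8% ± 1.91 in Control; SD, n = 3 here and below) inside the length limit and a 250-nt exon of SECISBP2 outside it (98.1% ± 0.94 and 94.9% ± 1.49). A 614-nt TLK1 exon was just inside the 5% limit (Control 5.01%) and a 404-nt DNAJC17 exon just outside (4.96%), and a 279-nt PHF20 exon was just inside the 95% limit (Control 94.99%) and a 378-nt MICALL1 exon just outside (95.03%).

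Event reads per library, which can count a read more than once, ran from 82918379 to 100005273 with DFMO and from 77648922 to 103250467 in Control. The neuroblast label was checked against markers. The noradrenergic genes PHOX2A, HAND2, GATA3, DBH, TH, DDC and ISL1 had exon events with enough reads, and of 8 markers of mesenchymal, fibroblast, blood and epithelial cells, VIM alone did.

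Of the 368 members, 328 entered the test, which needs a mean of 5% to 95% over all 6 libraries. The test was limma on the log2 odds of inclusion over all 7500 tested exons, and calls needed both an adjusted p under 0.05 and 10 percentage points or more between the group means. Long exons called higher with DFMO numbered 6, in DAGLB, VCAN, NASP, ENTPD6, ASPSCR1 and ANGEL2, which is 1.83% of those tested, against 2.71% of all tested exons. Long exons called lower numbered 5, in R3HDM1, CEP170, CCDC136, CAPN10 and UBAP2L, which is 1.52%, against 0.747% of all tested exons. The shares were not compared by a test. Counting any size, 15 long exons had an adjusted p below 0.05, against 5.72% of all tested exons, and 9 of them were higher and 6 lower, against 4.47% and 1.25%. The calls also rest on the variance model: without the variance trend, long exons called higher and long exons called lower both came to 0, with adjusted p of 0.0696 for DAGLB, 0.124 for NASP and 0.126 for ENTPD6, whose calls held under every other alternative that gave them a value. NASP and ENTPD6 had no value with either junction taken alone, and NASP none with a balance score of OK or B1. The counts rest on single libraries too. Long exons called higher and long exons called lower came to 3 and 3 without Control replicate 1, to 5 and 1 without Control replicate 3, to 6 and 0 without DFMO replicate 1 and to 5 and 3 without DFMO replicate 2.

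**Figure D1:**
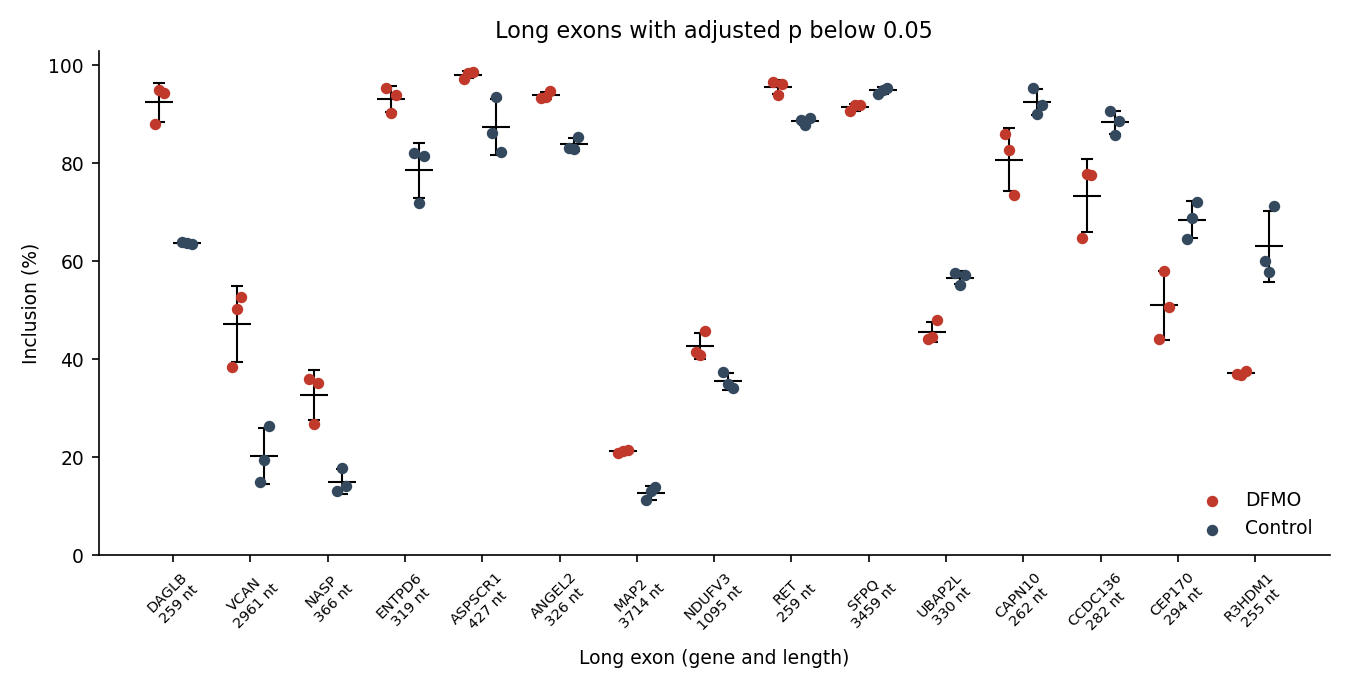
Inclusion in percent (vertical axis) of the 15 long exons with an adjusted p below 0.05, by gene and exon length. Each point is 1 library (DFMO in red, left; Control in dark blue, right), and the bars give the mean and SD of 3 libraries; the groups of all 15 exons are apart, with R3HDM1 at 36.8% to 37.7% with DFMO and 57.8% to 71.3% in Control.

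Among genes of lipid, nucleotide and protein turnover, DAGLB, a lipase that makes the endocannabinoid 2-arachidonoylglycerol, had the largest difference. Its 259-nt coding exon had 88.0%, 95.1% and 94.4% inclusion with DFMO and 63.9%, 63.7% and 63.6% in Control. The Control libraries lay close together, and every DFMO library was far above them. The exon rose by 28.7 points (log2 odds 2.80, SE 0.51, adjusted p = 0.00546). Reads that skip it numbered 5, 2 and 2 with DFMO and 13, 14 and 21 in Control, so the DFMO percents rest on few skipping reads. A 319-nt coding exon of ENTPD6, a nucleoside diphosphatase of the CD39 family (chr20:25207079-25207397), had 95.4%, 90.2% and 94.1% with DFMO and 82.1%, 72.0% and 81.6% in Control. It rose by 14.6 points (log2 odds 1.92, SE 0.37, adjusted p = 0.00855). The 262-nt coding exon of CAPN10, an atypical calpain protease, had 85.9%, 82.7% and 73.6% with DFMO and 95.4%, 90.2% and 91.9% in Control. It fell by 11.7 points (log2 odds -1.54, SE 0.42, adjusted p = 0.0485), the call closest to the threshold, and the call ended in 9 of 17 alternatives, with differences of -14.3 to -8.17 points when 1 library was left out.

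In matrix, membrane and neuronal structure genes, long exons of VCAN, MAP2, RET and ASPSCR1 passed the adjusted p, all of them higher with DFMO. VCAN encodes versican, a proteoglycan of the extracellular matrix, and its 2961-nt exon encodes the shorter of its glycosaminoglycan attachment domains, GAG-alpha. The exon had 38.4%, 50.4% and 52.8% inclusion with DFMO and 14.96%, 19.51% and 26.35% in Control. The group means were 47.2% ± 7.70 and 20.3% ± 5.73, without overlap, and the exon rose by 26.9 points (log2 odds 1.80, SE 0.43, adjusted p = 0.0245). With only 402 reads over the 6 libraries, its call was lost when Control replicate 1, Control replicate 2, DFMO replicate 2 or DFMO replicate 3 was left out (24.1 to 31.3 points when 1 library was left out). MAP2, a microtubule protein of dendrites, has a 3714-nt exon that parts its high-molecular-weight form from the short form. The MAP2 exon had 20.9%, 21.2% and 21.5% with DFMO and 11.2%, 13.1% and 13.9% in Control. It rose by 8.46 points, under the 10 points of a call (log2 odds 0.88, SE 0.17, adjusted p = 0.00724), and had 3936 reads. RET, the receptor kinase for ligands of the GDNF family, rose by 6.95 points at its 259-nt coding exon, with 96.5%, 93.9% and 96.3% with DFMO and 88.8%, 87.9% and 89.2% in Control (log2 odds 1.49, SE 0.30, adjusted p = 0.00987). ASPSCR1 encodes a tether of glucose transporter vesicles. Its 427-nt coding exon (chr17:81996420-81996846) had 97.3%, 98.5% and 98.6% with DFMO and 86.3%, 93.5% and 82.2% in Control, and rose by 10.8 points (log2 odds 2.71, SE 0.57, adjusted p = 0.0126). The ASPSCR1 call ended without Control replicate 1 or 3 (8.24 to 13.9 points over the libraries left out).

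A long exon of the centrosomal gene CEP170 and another of the coiled-coil gene CCDC136 fell. CEP170 is a protein of the subdistal appendages of the mother centriole, and its 294-nt coding exon had 44.2%, 58.1% and 50.8% with DFMO and 64.7%, 68.8% and 72.1% in Control. It fell by 17.5 points (log2 odds -1.06, SE 0.25, adjusted p = 0.0213). CCDC136 encodes a coiled-coil protein, and its 282-nt coding exon had 64.8%, 77.9% and 77.6% with DFMO and 90.6%, 85.8% and 88.7% in Control. It fell by 14.97 points (log2 odds -1.43, SE 0.36, adjusted p = 0.0309). DFMO replicate 1 was the lowest library for both exons, and without it neither was called. The CEP170 call also ended without Control replicate 2 or 3, and the CCDC136 call without Control replicate 1 or 3. With 1 library left out the differences were -21.1 to -14.1 points for CEP170 and -17.2 to -10.7 points for CCDC136.

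Among genes of RNA and chromatin proteins, long exons of ANGEL2 and NASP rose and those of R3HDM1 and UBAP2L fell. R3HDM1, which carries an R3H nucleic acid-binding domain, had its 255-nt coding exon at 37.1%, 36.8% and 37.7% with DFMO and at 60.02%, 57.82% and 71.34% in Control. It fell by 25.9 points (log2 odds -1.52, SE 0.36, adjusted p = 0.0217), the largest fall among the tested long exons. Control replicate 3 was the highest library, and the R3HDM1 call was lost when Control replicate 1, Control replicate 3, DFMO replicate 1 or DFMO replicate 2 was left out (-28.5 to -21.7 points over the libraries left out). ANGEL2, a phosphatase of RNA ends, had a 326-nt coding exon (chr1:213013093-213013418) with 93.4%, 93.5% and 94.7% with DFMO and 83.1%, 83.0% and 85.5% in Control. It rose by 10.01 points (log2 odds 1.54, SE 0.31, adjusted p = 0.00997), at the edge of the size threshold, and the ANGEL2 call was lost when Control replicate 1, Control replicate 2 or DFMO replicate 3 was left out (9.57 to 10.8 points over the libraries left out). A 366-nt exon of NASP, a histone chaperone (chr1:45607321-45607686), had 36.1%, 26.9% and 35.3% with DFMO and 13.1%, 17.9% and 14.3% in Control. It rose by 17.7 points (log2 odds 1.46, SE 0.19, adjusted p = 5.99e-04). This NASP exon lies inside a longer annotated exon, and its 3 deposited junction numbers give 3.19% to 4.89% with DFMO and 1.32% to 2.12% in Control, so that its percent includes reads from other junctions. Over the 6 libraries the NASP exon had 227 upstream but 17 downstream junction reads. Its acceptor is also that of the last exon in 4 annotated transcripts. A 330-nt segment of UBAP2L, a protein of stress granules (chr1:154263107-154263436), had 44.2%, 44.5% and 48.0% with DFMO and 57.6%, 55.3% and 57.2% in Control, and fell by 11.1 points (log2 odds -0.64, SE 0.13, adjusted p = 0.0107). The UBAP2L segment also lies inside a longer annotated exon, and over the 6 libraries it had 2343 reads at the upstream junction but 8 at the downstream one, so its percent rests on the upstream junction. The UBAP2L call was lost with either junction taken alone (with the upstream one by size only), and when DFMO replicate 1 was left out (-12.3 to -10.4 points over the libraries left out).

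The adjusted p, but not the size, was also passed in NDUFV3 and SFPQ. NDUFV3 is a subunit of respiratory complex I, whose 1095-nt coding exon (chr21:42903182-42904276) gives the longer form of the protein. It had 41.6%, 40.8% and 45.9% with DFMO and 37.4%, 34.9% and 34.2% in Control, and rose by 7.24 points (adjusted p = 0.0437). NDUFV3 falls outside the rule for named exons and was chosen after its values were seen. SFPQ is a paraspeckle protein that acts in splicing, and an unannotated 3459-nt segment of it (chr1:35181135-35184593) had 90.7%, 92.0% and 91.8% with DFMO and 94.2% to 95.5% in Control. It fell by 3.40 points (adjusted p = 0.0492) and had 4745 upstream but 142 downstream junction reads. Of the 15 exons, 12 were coding throughout, among 132 tested coding members of which 5 were called higher and 4 lower. Tested members whose length is a multiple of 3 numbered 141, and 2 were called higher and 4 lower. Such a length keeps the reading frame only where the exon is coding. Of the 100 members that leave a remainder of 1 the counts were 3 and 1. Of the 87 that leave a remainder of 2 they were 1 and 0. The shares called were 4.26%, 4% and 1.15%, and 6.82% for the coding members, against 3.45% of all tested exons. These shares were not compared by a test.

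**Figure D2:**
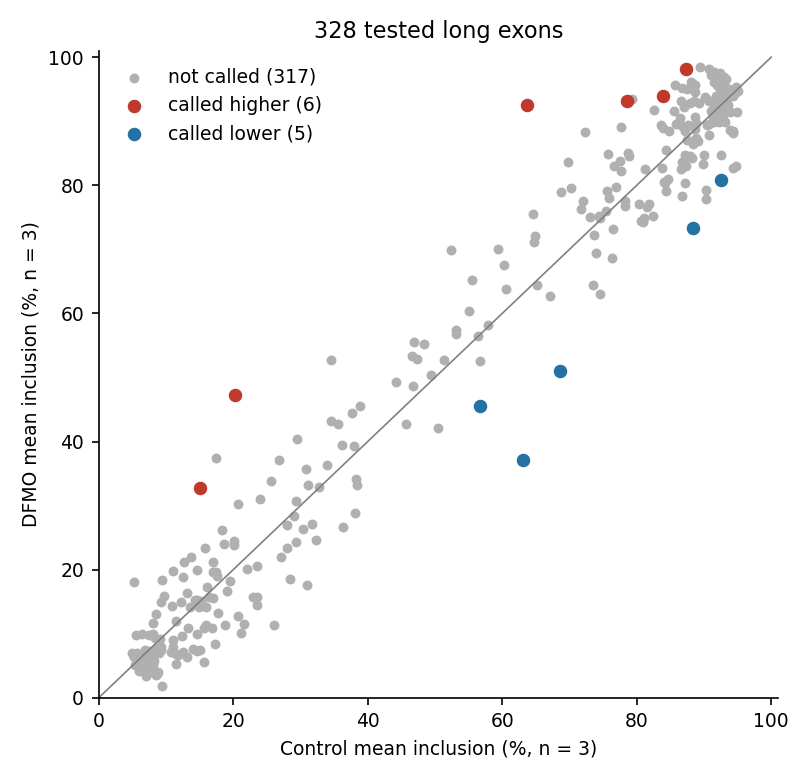
Mean inclusion with DFMO (vertical axis) against Control (horizontal axis), in percent, for the 328 tested long exons, with the line of equality. The 6 exons called higher lie above the line and the 5 called lower below it; the 317 others scatter around it.

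Differences that the test did not call were nearly as large in a few exons. A 388-nt segment of ETFDH, an electron carrier of fatty acid oxidation, had 37.4% ± 9.42 with DFMO and 17.4% ± 3.88 in Control (adjusted p = 0.0770), with 160 upstream but 4 downstream junction reads. The ETFDH difference was 23.9 points by the upstream junction alone and 3.05 points by the downstream one (adjusted p = 0.0103 and 0.362). A 335-nt segment of RCC1, the exchange factor of RAN, had 52.7% ± 5.44 and 34.6% ± 5.56 (adjusted p = 0.0649), with 14 upstream but 376 downstream junction reads. The RCC1 difference was 4.99 points by the upstream junction alone and 17.7 points by the downstream one (adjusted p = 0.369 and 0.0180). An exon of DEDD2 with the start codon (366 nt) had 69.9% ± 6.91 with DFMO and 52.4% ± 7.66 in Control (adjusted p = 0.166). By its upstream junction alone the DEDD2 difference was 2.40 points and by the downstream one 29.2 points (adjusted p = 0.935 and 0.0143). A 606-nt coding exon of RPS6KL1 had 88.3% ± 5.11 and 72.3% ± 12.7 (adjusted p = 0.171). A 330-nt segment of the kinase gene DSTYK had 93.4% ± 2.18 with DFMO and 79.4% ± 5.92 in Control (adjusted p = 0.0614). In the other direction, a 292-nt segment of TRAPPC11, a vesicle tethering subunit, had 11.3% ± 6.24 with DFMO and 26.0% ± 8.21 in Control (adjusted p = 0.112), with 3 upstream but 142 downstream junction reads. The TRAPPC11 difference was -0.11 points by the upstream junction alone and -21.2 points by the downstream one (adjusted p = 0.953 and 0.00595). The 407-nt BCL2L11 exon with the start codon of this pro-apoptotic BH3 protein, picked after its values were seen, had 83.0% ± 5.66 with DFMO and 94.8% ± 2.40 in Control (adjusted p = 0.0904). The exons other than BCL2L11 were picked as the 6 largest not called whose groups do not overlap, so that trait is no result. The groups of BCL2L11 did not overlap either. Among the tested long exons, 45 were higher and 40 lower without overlap (13.7% and 12.2% of them). Over all 7500 tested exons the groups did not overlap in 26.2%, namely higher in 17.9% and lower in 8.33%.

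At the other end, well-read long exons with hardly any difference included those of OPA1, a mitochondrial fusion GTPase (89.7% ± 2.28 with DFMO and 88.7% ± 1.15 in Control), TMEM108 (88.9% ± 0.36 and 88.6% ± 0.83) and APBA2 (93.5% ± 4.07 and 93.4% ± 0.56). The 273-nt SRRM2 exon with the start codon had 92.4% ± 1.62 and 91.7% ± 3.03. Over all 328 tested long exons the median difference was 0.225 points, and 51.8% were higher with DFMO. The median difference of the long exons was 0.61 points with no filter on the mean percent, 1.26 points with a balance score of OK or B1, and -0.04 points without Control replicate 3 to 0.42 points without DFMO replicate 1. Over the other 6508 tested exons with a Control mean of 5% to 95%, the median was 1.37 points and 62.2% were higher. The median inclusion of the long exons was 68.1%, 66.4% and 67.7% in the DFMO libraries and 63.0%, 64.7% and 66.0% in the Control libraries.

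The median difference varied between length classes of the long exons. The 102 tested exons of 251 to 300 nt had a median difference of -1.09 points, with 41.2% of them higher with DFMO, whereas the 30 exons over 1000 nt had 3.43 points and 70.0%. In between, the medians were 0.81 points for 91 exons of 301 to 400 nt, 0.93 for 58 of 401 to 600 nt and 1.19 for 47 of 601 to 1000 nt. Shorter exons with the same limits on the Control mean had medians of 1.65 points up to 27 nt, 1.69 at 61 to 100 nt and 0.81 at 151 to 250 nt. In the class of 251 to 300 nt, 6 exons were higher and 21 lower without overlap of the groups (5.88% and 20.6%, together 26.5%), against 17.9% and 8.33%, together 26.2%, of all tested exons, and 1 was called higher (DAGLB) and 4 lower (R3HDM1, CEP170, CCDC136 and CAPN10). Measured against each exon's mean over the 6 libraries, the median of this class was -0.73, -0.22 and -1.17 points in the DFMO libraries and 0.86, 1.13 and -0.26 points in the Control libraries. The groups overlapped, since Control replicate 3 lay among the DFMO libraries. For the exons over 1000 nt these medians were 2.23, 0.93 and 0.72 points with DFMO and -2.71, -2.002 and 0.10 points in Control, without overlap. Their median percents did overlap, at 53.69%, 53.27% and 50.65% with DFMO and 45.7%, 54.4% and 45.7% in Control. Control replicate 2 was the highest library by that measure. The length classes were drawn with results known, and no test was made of the difference between them. The library medians come from the same values and are no separate evidence.

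**Figure D3:**
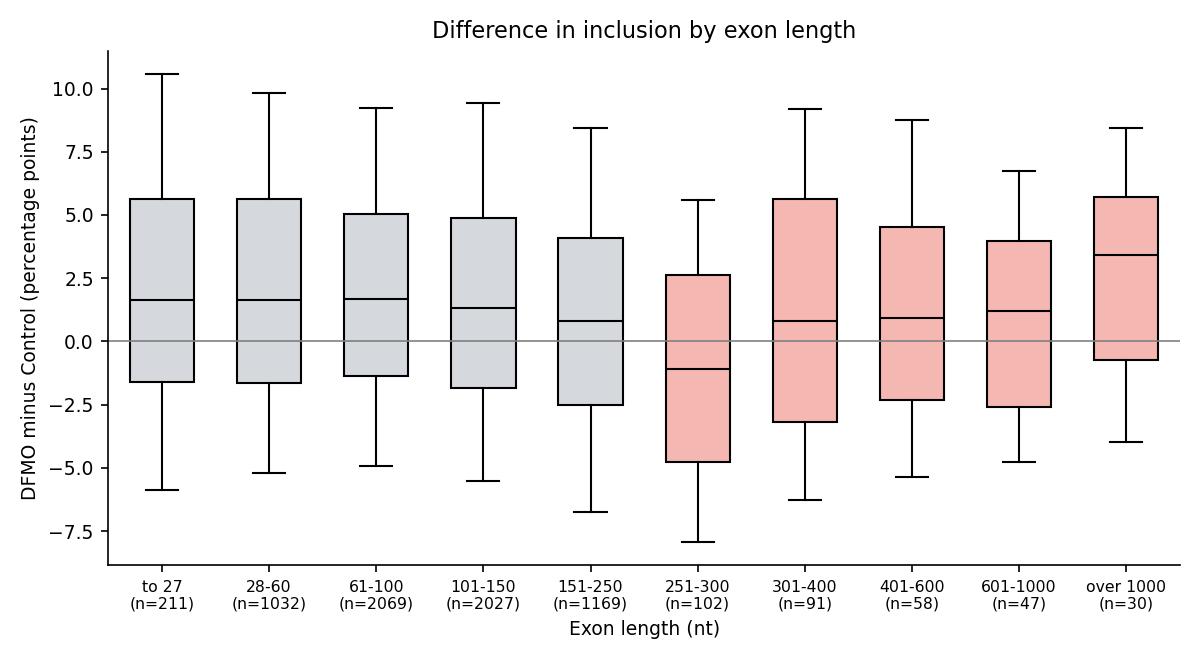
DFMO minus Control mean inclusion in percentage points (vertical axis) by exon length class (horizontal axis), for tested exons with a Control mean of 5% to 95%; boxes give the median and quartiles, whiskers the 10th and 90th percentiles, grey for shorter exons and pink for long ones. The class of 251 to 300 nt has the only median under 0 (-1.09 points), and the class over 1000 nt the highest (3.43 points).

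Besides VCAN, MAP2, NDUFV3 and SFPQ, the exons over 1000 nt, picked here by their length after their values were seen, did not pass the test. A 1319-nt exon of PTRH2, a mitochondrial peptidyl-tRNA hydrolase, had 34.2%, 28.6% and 28.1% with DFMO and 21.91%, 24.97% and 15.39% in Control (adjusted p = 0.309). A 1528-nt coding exon of LRIF1, a heterochromatin protein of the inactive X chromosome, had 54.5%, 40.2% and 41.8% with DFMO and 40.1%, 40.2% and 36.4% in Control (adjusted p = 0.546). The 4755-nt coding exon of ASPM, which organises spindle poles, had 82.7% ± 3.45 and 83.8% ± 3.57 (adjusted p = 0.847), and the 3455-nt coding exon of TET2, a DNA demethylase, had 90.5% ± 5.60 and 86.4% ± 10.9 (adjusted p = 0.774). The longest 2 members, a 9361-nt segment of MAGI2-AS3 (52.5% ± 3.86 with DFMO and 56.7% ± 12.3 in Control) and an 8528-nt segment of CUX1 (9.93% ± 3.74 and 14.6% ± 5.83), had 6 and 0 downstream junction reads in all 6 libraries, and their far ends were thus hardly read or not read. A 1313-nt segment of CNOT4, a ubiquitin ligase of the CCR4-NOT complex, had 40.4% ± 7.88 with DFMO and 29.4% ± 1.76 in Control (adjusted p = 0.330), with 200 upstream but 8 downstream junction reads. Among 11 coding exons over 1000 nt the median difference was 4.12 points, and among 14 that are not annotated as an exon of their own it was 0.47 points.

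Exons that occur in NMD transcripts only numbered 13 among those tested, and none was called. In 6 of them every DFMO library was below every Control library, in none above, against 8.33% and 17.9% of all tested exons. The class was picked after its values were seen. Its median Control mean was 13.99%, against 74.2% for all tested exons. Rarely included long exons also leaned lower. Of 108 with a Control mean up to 25%, NMD exons among them, 14 were higher and 15 lower without overlap. Their median difference was -0.75 points, and 40.7% were higher with DFMO. TRA2B encodes an SR-like splicing activator that limits its own level through such an exon. This 276-nt exon (chr3:185931577-185931852) had 24.7%, 25.7% and 19.6% with DFMO and 30.6%, 26.4% and 26.8% in Control (adjusted p = 0.261). A 347-nt exon of SRSF12, an SR protein, had 13.9%, 7.08% and 9.51% with DFMO and 23.6%, 18.6% and 21.4% in Control (adjusted p = 0.243). A 260-nt exon of UNK, an RNA-binding zinc finger protein, had 72.0%, 66.6% and 67.5% with DFMO and 78.2%, 78.7% and 72.1% in Control (adjusted p = 0.0736). The others without overlap lay in DEPDC1 (18.6% ± 7.79 with DFMO and 28.5% ± 0.29 in Control), CEP44 (7.60% ± 2.23 and 13.99% ± 2.76) and the casein kinase gene CSNK1D (7.16% ± 3.68 and 12.5% ± 2.91). The DEPDC1 exon had 259 upstream but 0 downstream junction reads over the 6 libraries, and the CEP44 exon 74 and 0. Their downstream ends were thus not read. The remaining 7 ranged from -4.01 points in PRPF39 to 8.98 points in ATG4A. Inclusion is a share of stable transcripts, so making more of an NMD transcript and degrading less of it cannot be told apart in these data. Of 14 tested exons in the 5′ UTR none was called, with 1 higher and 1 lower without overlap.

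**Figure D4:**
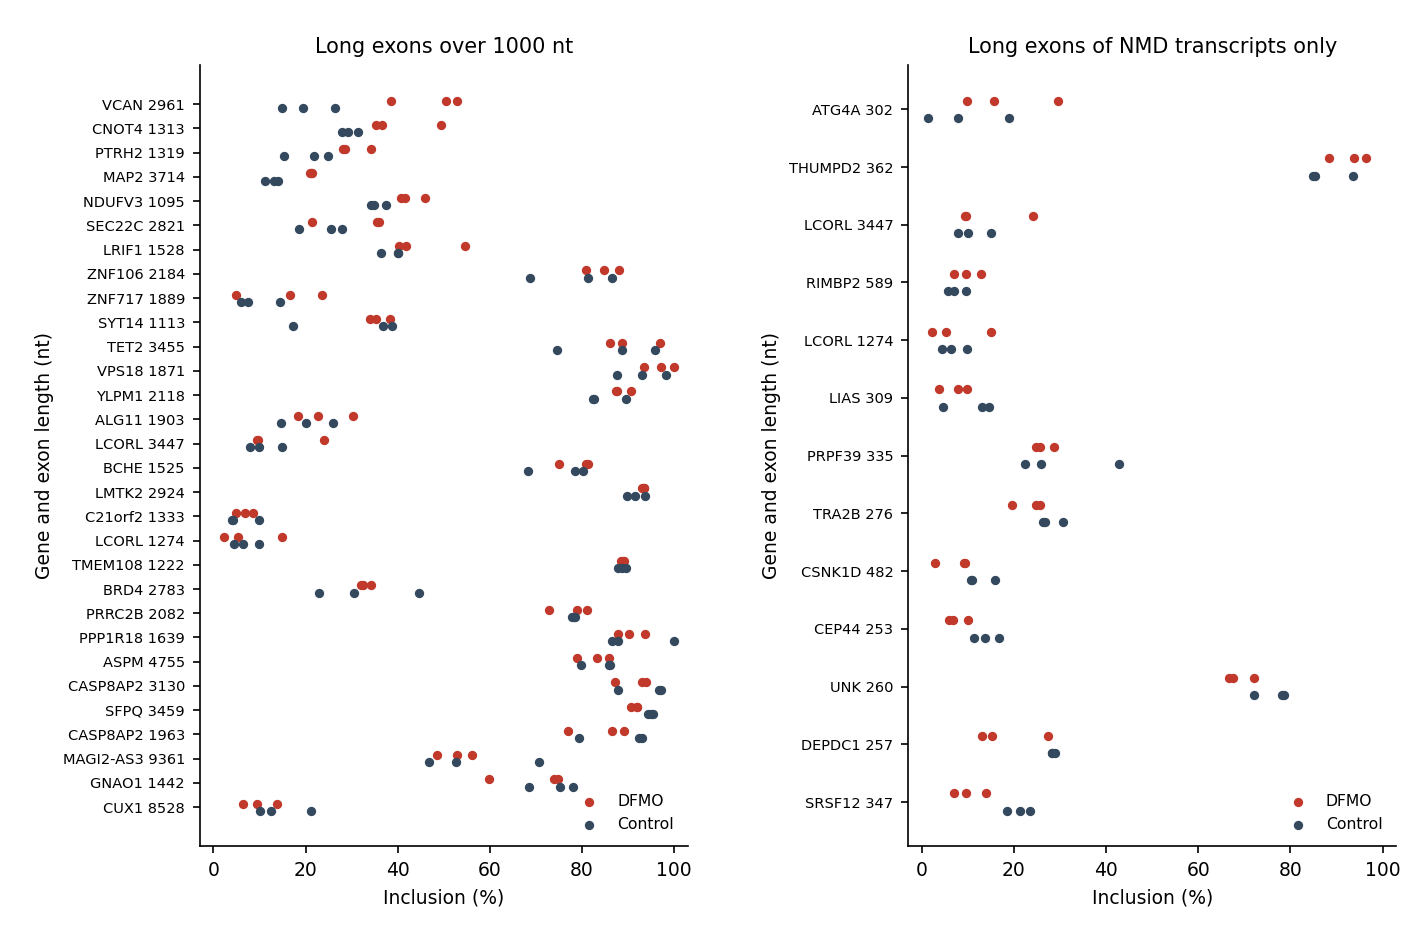
Inclusion in percent (horizontal axis) in each library for the 30 tested long exons over 1000 nt (left panel) and the 13 of NMD transcripts only (right panel), by gene and length and ordered by difference; the 2 LCORL exons are in both. DFMO libraries are red and drawn above the dark blue Control libraries; VCAN heads the left panel at 38.4% to 52.8% with DFMO against 14.96% to 26.35% in Control, and SRSF12 closes the right one at 7.08% to 13.9% against 18.6% to 23.6%.

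No long exon was called in any of 8 gene groups, which were chosen with results known. Over all 7500 tested exons 2.71% were called higher and 0.747% lower. With so few long exons per group, the absence of a call is no result about a group. For SR proteins and their relatives, 0 of 6 tested long exons were called, among them a 348-nt segment of SRRM2 (9.86% ± 1.27 with DFMO and 5.60% ± 1.53 in Control, adjusted p = 0.1001). Over all exons of that group, 5 of 47 were called higher and 1 lower. For hnRNPs and other splicing regulators it was 0 of 4 long exons, with SFPQ passing the adjusted p alone, against 2 of 75 exons called higher. For chromatin and transcription regulators it was 0 of 13 long exons, with a median of -1.02 points, against 3 of 183 called higher. There a 288-nt coding exon of SRCAP, a chromatin remodeller that deposits H2A.Z, had 76.6%, 83.8% and 77.4% with DFMO and 87.9%, 98.6% and 84.5% in Control (adjusted p = 0.185). For DNA repair and the cell cycle it was 0 of 3 long exons, against 2 of 134 called higher and 2 lower; a 737-nt exon of UIMC1, which guides BRCA1 to ubiquitin, had 74.9% ± 4.27 and 74.5% ± 2.28. For neurite, cytoskeleton and synapse genes it was 0 of 7 long exons, with MAP2 passing the adjusted p alone. Of all 169 tested exons of the group 16 were called higher and 3 lower. A 411-nt coding exon of EPB41L1, a membrane skeleton protein, had 85.1% ± 3.53 with DFMO and 78.7% ± 3.78 in Control (adjusted p = 0.161).

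In the noradrenergic identity group, 0 of 3 tested long exons were called, with RET passing the adjusted p alone, against 6 of 44 exons called higher and 1 lower. A 459-nt coding exon of TFAP2B, a transcription factor of sympathetic neuroblasts, had 95.4%, 97.6% and 97.8% with DFMO and 89.9%, 93.4% and 93.9% in Control (adjusted p = 0.0667). A 798-nt segment of GATA2, another factor of this lineage, had 3.34% ± 1.49 and 7.01% ± 1.04 (adjusted p = 0.215). Of 11 tested long exons in zinc finger genes, a family whose finger arrays often sit on 1 long exon, none was called, 9 were higher with DFMO and the median was 3.28 points. Over all 232 tested exons of such genes 5 were called higher and 1 lower. Of 5 tested long exons in noncoding RNA genes none was called, against 3 higher and 3 lower of 114. The shares called over all 7500 tested exons were 2.71% higher and 0.747% lower.

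Reads at the 2 ends of a long exon often differed. Between the upstream and downstream junction the median fold, whichever way, was 0.88 on the log2 scale for the 328 tested long exons and 0.54 for all tested exons. The ends differed over 2-fold in 44.2% of the long exons and in 25.5% of all tested exons. For long exons that are coding throughout, the median was 0.51, and for those not annotated as an exon of their own it was 1.98. Upstream reads were over 10-fold higher in 38 long exons and downstream reads in 18, of which 35 and 14 were not annotated as an exon of their own. Where the acceptor is also that of an annotated last exon, and the donor not that of a first exon, 20 of 72 long exons had over 10-fold more upstream reads and none over 10-fold more downstream reads. Where the donor is also that of an annotated first exon only, 5 of 42 had over 10-fold more downstream reads and none over 10-fold more upstream reads. Reads of last or first exons that use the same splice site cannot be told apart from reads of the cassette exon at that junction. For 222 tested long exons the 3 junction numbers gave the deposited percent within 0.5 points in every library, and of these 2 were called higher and 3 lower.

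**Figure D5:**
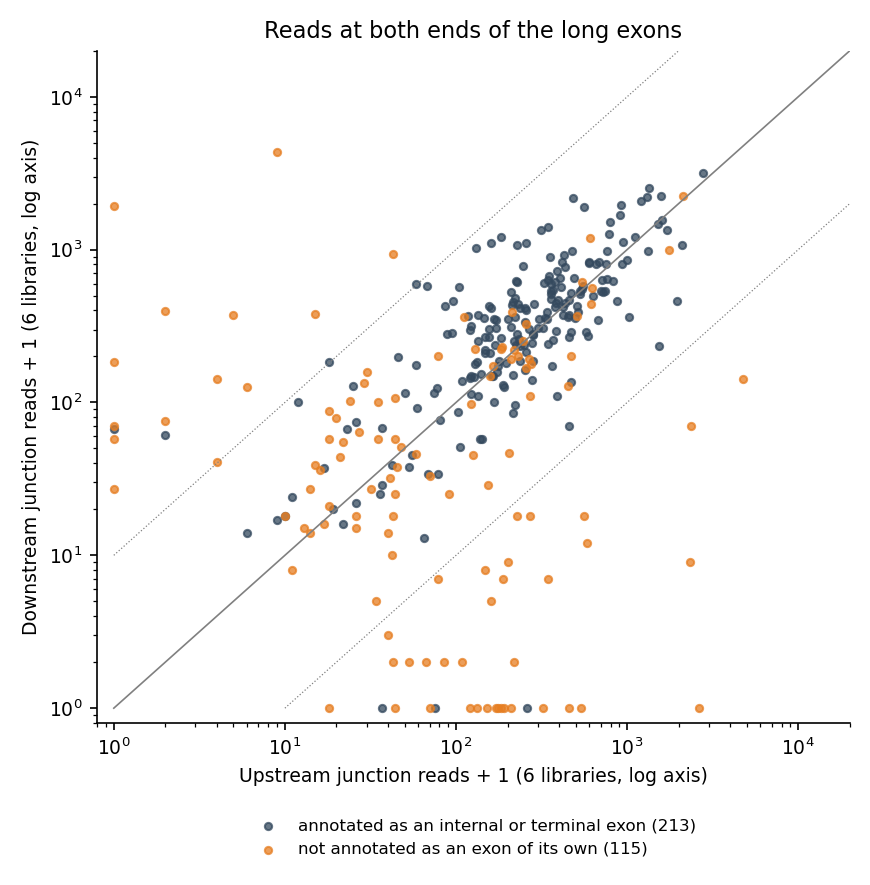
Downstream (vertical axis) against upstream (horizontal axis) junction reads plus 1, summed over 6 libraries on log axes, for the 328 tested long exons; the line marks equality and the dotted lines a 10-fold difference. The 115 exons not annotated as an exon of their own (orange) supply most of the points beyond the dotted lines, 35 of 38 on the upstream side and 14 of 18 on the downstream side.

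In the 11 genes with a called long exon, 17 other exons in 7 genes were tested. Calls were made in 3 of them, against 3.45% of all tested exons. The 11 genes were picked by their calls, and no test was made of this share. A 74-nt exon of ASPSCR1 rose with the 427-nt one, to 97.4% ± 1.26 with DFMO against 85.0% ± 5.59 in Control (adjusted p = 0.0107), and a 97-nt exon of ENTPD6 rose to 91.0% ± 3.90 against 76.56% ± 1.4997 (adjusted p = 0.0188). A 51-nt exon of CCDC136 fell to 75.03% ± 8.68 against 89.5% ± 0.92 (adjusted p = 0.0465). Each of these moved the same way as the long exon of its gene. A 58-nt ASPSCR1 exon passed the adjusted p at 7.45 points (0.0181), while the other 13 exons did not pass; 5 other CCDC136 exons had differences of -5.08 to 3.45 points. The percents of 2 exons of 1 gene can share skipping reads.

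Levels of the host genes were set beside these exons. In bulk RNA, fewer cells that use an exon and less RNA from it per cell cannot be told apart. A junction-read proxy of gene level, the mean log2 of 1 plus the reads per 1e+06 event reads over a gene's exons, called none of the 11 genes at 1.5-fold, against 0.347% of 9232 genes, and their differences ran from -0.22 to 0.11. The proxy also moves with inclusion. In 3 of the 11 it passed the adjusted p alone, lower in NASP (-0.22, adjusted p = 6.32e-04) and VCAN (-0.10, adjusted p = 0.0190) and higher in CCDC136 (0.11, adjusted p = 0.0133). The proxy of RET was also lower (-0.18, adjusted p = 0.00165). The share of all 9232 genes that pass the adjusted p alone was not counted, so the 3 of 11 cannot be set against it. Introns next to a long exon were tested in 39 cases, in 32 genes, and none was called, against 3.8% of 3684 tested introns. In 29 of the 39 retention was higher with DFMO, against 53.2% of all tested introns, and their median difference was 2.47 points, against 0.33 points over all tested introns. Some of these introns share a gene, and they partly rest on the same reads as the long exons. No test was made of this share. A 1260-nt intron of RHBDD3 passed the adjusted p alone, with 74.5%, 67.6% and 70.7% retention with DFMO and 72.3%, 84.6% and 82.8% in Control (adjusted p = 0.0397).

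The 40 members that were not tested had a mean outside 5% to 95% over the 6 libraries. Of these, 10 did not overlap between the groups, 6 higher and 4 lower, which at 25% is close to the 26.2% of all tested exons. Their directions are no result. A member passes 95% over the 6 libraries only when its DFMO mean is the higher one, and falls under 5% only when it is the lower. A 472-nt coding exon of SPHK2, a sphingosine kinase, had 100% in each DFMO library and 91.1%, 90.6% and 88.9% in Control. A 651-nt coding exon of CEP128, a centriole protein, had 100% in each DFMO library and 86.0%, 95.1% and 90.6% in Control. The 635-nt coding exon of TBX2, a factor of the noradrenergic programme, had 99.3% ± 0.90 and 94.7% ± 1.35. These were picked after their values were seen, and with no filter on the mean percent, when all 368 members were tested, the calls stayed at 6 higher and 5 lower.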

How the data were processed

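The deposited table gives, per the file headers, a percent for each splicing event and library in the authors' unit, and beside it a quality text with a coverage score, the reads at both junctions and across the skipped exon, and inclusion and exclusion reads. The submitters' processing notes name the build GRCh38. Which aligner and quantifier were used is not given in these sources. The inclusion and exclusion reads are the total split by the percent, so their agreement with it (100% of 2858409 values within 0.5 points) is no independent check. Exons scored LOW, OK or SOK with 10 reads or more in each of 6 libraries and a mean of 5% to 95% were tested with limma 3.58.1 in R 4.3.3 on the log2 odds with 0.5 added to both read numbers. The empirical Bayes step was robust, with the variance trended on counting variance, and Benjamini-Hochberg adjustment ran over all 7500 exons. The fit was tested on simulated data. Python 3.11.15 and pandas 2.3.3 placed exons in GENCODE release 29. Alternatives changed the scale, variance model, test, filters, junctions and libraries. The members, gene groups, length and annotation classes were chosen with earlier results of these data known. Named exons are the called ones, the 6 largest not called whose groups do not overlap, the 5 longest, up to 3 per gene group, 4 well-read ones with under 1 point of difference and those at the limits of the rule; others are marked. Every column of values per library was used.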

Additional observations from a re-analysis of the deposited data

How the results depend on the processing

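Of 877 values of named exons under alternatives, 805 kept their direction and their side of the threshold, 44 no longer passed it and 9 newly did. In the other 19, of 11 exons that did not pass the test (adjusted p 0.475 or more), the sign turned or the difference came to 0. With the upstream junction only the APBA2 991 nt exon had -0.010 points, and with the downstream junction only the CDK5RAP2 418 nt exon had -0.072 and the CUX1 8528 nt exon 0 points. With 1 library left out, differences ran from -9.11 to 2.73 points for the MAGI2-AS3 9361 nt exon, -8.00 to 2.20 for the PRPF39 335 nt exon, -3.20 to 0.70 for the ASPM 4755 nt exon, -2.20 to 1.69 for APBA2, -1.86 to 2.39 for the UIMC1 737 nt exon, -0.75 to 4.13 for the PMS2 862 nt exon, -0.61 to 2.36 for the SRRM2 273 nt exon, -0.57 to 0.99 for CDK5RAP2, -0.29 to 1.95 for the OPA1 319 nt exon and -0.20 to 0.63 for the TMEM108 1222 nt exon. The cause was not tested. Without the variance trend, long exons called higher and long exons called lower both came to 0 (lowest adjusted p of limma 0.0696; 51 long exons at an unadjusted p below 0.05, against 58), all exons called higher to 12 and all exons called lower to 2, so no call of a long exon holds under that choice. Long exons called higher numbered 3 with the downstream junction only, and 2, with 3 lower, among exons whose junction numbers give the percent, an alternative chosen after seeing the data. With the counting variance from the pooled percent, likewise added, long exons called lower numbered 2 and all exons called lower 36. With no size threshold, all exons called higher numbered 335 and all exons called lower 94. With 1 library left out, long exons called higher ranged from 3 to 6, long exons called lower from 0 to 4, all exons called higher from 128 to 181 and all exons called lower from 30 to 42. The median difference of the long exons (0.225 points) was 0.61 points with no filter on the mean percent, 1.26 points with a balance score of OK or B1, and -0.04 to 0.42 points with 1 library left out. Same-numbered DFMO and Control libraries did not deviate together (correlations -0.020, -0.002 and -0.007). Such values cannot show whether the samples were prepared in pairs, which the labels do not say. With the replicate block, long exons called higher numbered 6 and long exons called lower 6, and all exons 202 and 52. Exons whose junction numbers do not give the percent, NASP among them, have no value for the single-junction alternatives. NASP also has none with a balance score of OK or B1. Reads were few for DAGLB and VCAN (443 and 402 over 6 libraries).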

Other observations

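Besides the members, 4 coding exons over 250 nt with a Control mean above 95% were called, all of them lower with DFMO, and the limit on the Control mean alone kept them out. Their direction is no result, since the test needs a mean of 5% to 95% over the 6 libraries and such an exon enters it only when its DFMO mean is lower. A 310-nt exon of PIGG, which modifies GPI anchors (chr4:530436-530745), had 81.5%, 74.6% and 67.9% with DFMO and 95.3%, 95.9% and 94.1% in Control (adjusted p = 0.0103). A 369-nt exon of LNX2, a ubiquitin ligase (chr13:27562413-27562781), had 81.4%, 86.1% and 72.2% with DFMO and 94.4%, 94.7% and 97.6% in Control (adjusted p = 0.0276). A 345-nt exon of CRTC2, a coactivator of CREB (chr1:153951260-153951604), had 87.8%, 78.9% and 84.8% with DFMO and 97.7%, 92.0% and 95.7% in Control (adjusted p = 0.0222). A 340-nt exon of FUCA2, a fucosidase (chr6:143503913-143504252), had 84.8%, 90.2% and 84.9% with DFMO and 97.97%, 97.76% and 96.4% in Control (adjusted p = 0.00209).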
